A study of Homo sapiens with 372 samples.

Results

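C1orf54 and SNCG were examined in single cells of the human ovarian cancer line A2780, as 2 of the 9664 genes listed in the deposited table. They were taken by symbol and were selected on their measured levels, because their mean was higher after 48 h of paclitaxel than in untreated cells, and, for C1orf54, highest with paclitaxel and celecoxib together. The level at 48 h of paclitaxel, the level of C1orf54 with both drugs and the split by state are therefore descriptions and not independent findings. Both passed the detection limit, which asks for more than 30% of cells in some condition and which 9655 genes passed.

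The cells came from 6 conditions of the same line: untreated control (Ctrl), 5 nM paclitaxel for 16 h (Pac16h) or 48 h (Pac48h), 75 µM celecoxib for 2 h (Cele2h) or 16 h (cele16h), and both drugs at these doses for 16 h (PacCele16h). Paclitaxel binds and stabilizes microtubules, and celecoxib inhibits cyclooxygenase 2. Full-length cDNA was made from polyA RNA by Smart-seq2 on the Fluidigm C1 system, with 3 spike-in RNAs added to each well. The table held 46 control cells, 56 and 53 cells with 16 and 48 h of paclitaxel, 63 and 61 cells with 2 and 16 h of celecoxib, and 59 cells with both drugs, or 338 of the 372 cells sequenced.

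The labels name no replicate cultures, and each condition therefore counts as 1 sample and no test between conditions was made from cells. The SD values are spreads over the cells of a condition and hold single-cell measurement error too, which the labels do not separate. They name no separate captures either, so a condition and its capture cannot be told apart. All control cells carried library indices of a block of 96 (block 4) that only the 48 h paclitaxel cells shared in part. Read counts per cell are unknown. The median number of genes detected per cell lay between 6125.5 and 6630 in the 6 conditions. The table lists 1 of 6 epithelial markers looked for, KRT18, at a mean E-value (a log2 level, defined with the levels) of 0.59 in the control cells, and 1 of 6 markers of other cell types, LUM, at 0.48. LUM did not pass the detection limit. The remaining markers are not among the listed genes, which the study had filtered by detection, so these lists do not settle the labelled cell type.

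SNCG encodes gamma-synuclein, a small soluble protein of the synuclein family. Gamma-synuclein is best known from peripheral neurons and is also made by breast and ovarian tumours, where it has been studied for its binding to the spindle checkpoint kinase BUBR1 (BUB1B) and for reduced sensitivity to drugs that act on microtubules. C1orf54 is a small gene named for its position as an open reading frame of chromosome 1, and little is known of what its protein does.

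On hg38 with the GENCODE version 44 annotation, C1orf54 (ENSG00000118292.8 in the table) lies on the plus strand of chr1:150268200-150280916 and has 3 annotated transcripts. SNCG (ENSG00000173267.13) lies on the plus strand of chr10:86958599-86963258 and has 4 annotated transcripts. Each gene overlaps a gene on the opposite strand. Of the 1270 annotated exon bases of C1orf54, 490 are shared with exons of APH1A, which encodes a gamma-secretase subunit. SNCG lies wholly within the bounds of MMRN2, which encodes an endothelial matrix protein, and shares 0 of its 1264 exon bases with MMRN2 exons. The shared bases lie near the start of the longest C1orf54 transcript. Smart-seq2 libraries do not mark strand, so reads from these bases of C1orf54 and APH1A cannot be told apart.

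The 250 bases before a RefSeq start (GRCh38.p14, plus strand) are shown for both genes, so that the letters ahead of their starts can be set side by side. Both genes were higher in Pac48h, by which they were chosen, and in PacCele16h. The C1orf54 window is chr1:150272540-150272789, ahead of the start at 150272790, and the SNCG window is chr10:86958349-86958598, ahead of the start at 86958599. Capitals mark a C/EBP-ATF element on the minus strand in C1orf54 and a GC box on the minus strand in SNCG.
C1orf54: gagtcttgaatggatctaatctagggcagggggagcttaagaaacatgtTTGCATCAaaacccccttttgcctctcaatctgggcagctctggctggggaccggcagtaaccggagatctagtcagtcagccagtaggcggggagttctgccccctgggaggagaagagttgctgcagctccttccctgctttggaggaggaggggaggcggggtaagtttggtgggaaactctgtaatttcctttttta
SNCG: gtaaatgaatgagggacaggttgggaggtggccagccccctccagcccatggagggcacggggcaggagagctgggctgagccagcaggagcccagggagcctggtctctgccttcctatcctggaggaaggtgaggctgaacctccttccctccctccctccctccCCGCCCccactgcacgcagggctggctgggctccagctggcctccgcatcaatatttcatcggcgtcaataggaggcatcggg

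The letters searched on both strands were TATAAA (the core promoter element bound by TBP), CCAAT (the element bound by NF-Y), GGGCGG (GC box), TGATGCAA and TGATGNAA (C/EBP-ATF element, where the free base N makes every match of the first a match of the second) and the consensus of the interferon-stimulated response element. In the C1orf54 window TGATGCAA was found at positions -201 to -194 from the start, and it was the same match for TGATGNAA. Of 35116 RefSeq windows of this length, 0.772% held TGATGCAA and 3.14% held TGATGNAA. In the SNCG window a GC box was found at positions -83 to -78, and 42.6% of all windows held one. No other match was found in these windows. The window of a further SNCG start, at 86955759, held 0 matches, and that of a further C1orf54 start, at 150272799, held the same TGATGCAA. A match describes the letters only and is not evidence of a bound site.

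Levels are given as E-values, log2(N/10 + 1), where N is the TPM of a gene after division by the spike-in signal of the same cell. C1orf54 had E-values from 0 to 5.62 with a median of 2.68 in the control cells. The range was 0 to 6.25 with a median of 3.27 in Pac16h, and 0 to 6.97 with a median of 4.53 in Pac48h. It was 0 to 6.67 with a median of 4.76 in Cele2h, and 0 to 5.81 with a median of 3.76 in cele16h. In PacCele16h it was 0 to 8.12 with a median of 6.10. Every condition held cells at 0 and the ranges of all conditions overlapped, while E-values above 7 occurred in PacCele16h only, in 15 of 59 cells.

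**Figure D1:**
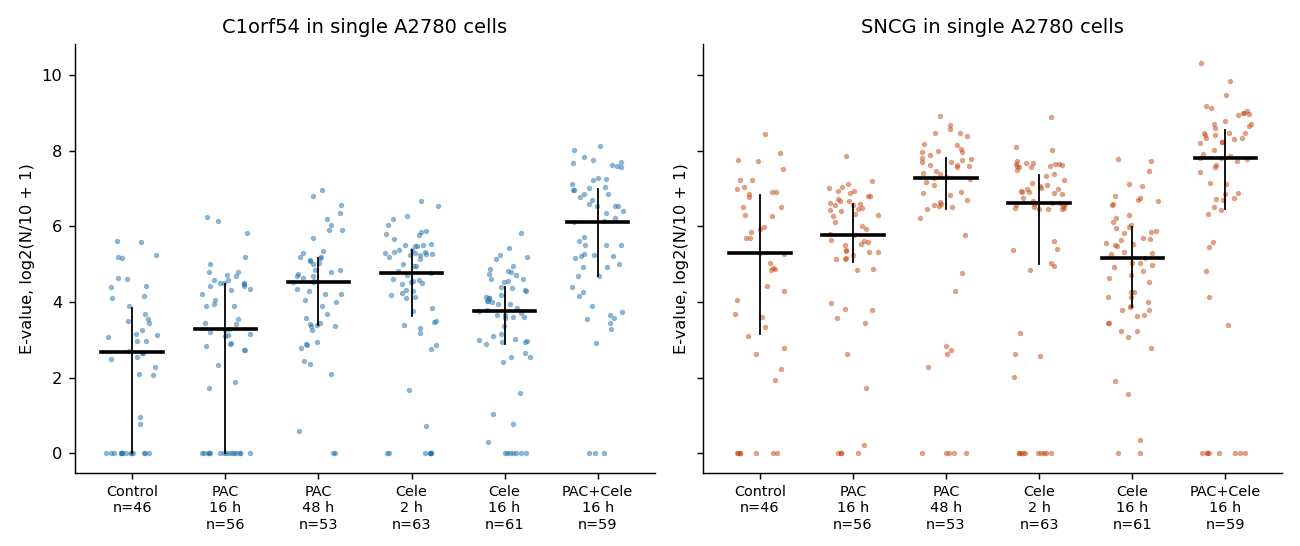
E-value (log2(N/10 + 1), vertical axis) of C1orf54 (left) and SNCG (right) in every retained A2780 cell of the 6 conditions. Points are cells, thick bars are medians and thin bars the interquartile range; the C1orf54 median lies between 2.68 in the control and 6.10 in PacCele16h, and the SNCG median between 5.16 in cele16h and 7.81 in PacCele16h.

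Ordered by mean E-value, C1orf54 was lowest in the control, at 2.41 ± 1.91 (SD over cells, n = 46 cells). It was followed by Pac16h at 2.89 ± 1.98 (n = 56), cele16h at 3.31 ± 1.61 (n = 61), Cele2h at 4.22 ± 1.85 (n = 63), Pac48h at 4.25 ± 1.53 (n = 53) and both drugs at 5.60 ± 1.91 (n = 59). No step between neighbours in this order exceeded the SD over cells of either neighbour, and Cele2h and Pac48h differed by only 0.03. The whole step from control to both drugs, 3.19, exceeded the SD of both groups.

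SNCG had E-values from 0 to 8.45 with a median of 5.28 in the control cells. The range was 0 to 7.87 with a median of 5.78 in Pac16h, and 0 to 8.92 with a median of 7.29 in Pac48h. It was 0 to 8.88 with a median of 6.63 in Cele2h, and 0 to 7.78 with a median of 5.16 in cele16h. In PacCele16h it was 0 to 10.3 with a median of 7.81. The groups again overlapped, but the share of cells above an E-value of 7 differed widely, with 8 of 46 control cells, 5 of 56 and 30 of 53 cells in Pac16h and Pac48h, 22 of 63 and 5 of 61 cells in Cele2h and cele16h, and 38 of 59 cells in PacCele16h.

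The mean E-value of SNCG was 4.70 ± 2.56 in the control, 4.86 ± 1.75 in cele16h, 5.25 ± 2.03 in Pac16h, 5.53 ± 2.74 in Cele2h, 6.29 ± 2.55 in Pac48h and 6.72 ± 2.98 in PacCele16h, over the same numbers of cells. No step between neighbours exceeded the SD of either, nor did the step of 2.02 from the control to both drugs. Since TPM is scaled by transcript length, the levels of the genes can be compared, and SNCG was above C1orf54 in every condition. The mean linear value N of SNCG was 681 in the control and 1594 in Pac48h, where C1orf54 had 100 and 285. The order of the conditions depended on the scaling. With linear values brought to an equal total in every cell, mean SNCG was highest in Pac48h at 6.32. It was then 5.65 in cele16h, 5.63 in PacCele16h and 4.27 in the control. C1orf54 stayed highest in PacCele16h, at 4.49 against 4.33 in Pac48h.

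In Pac48h the mean E-value was 1.84 above the control for C1orf54 and 1.59 above it for SNCG. The limit used to count genes, log2 of 1.5, was passed upward by 89 of 9655 genes, or 0.922%. C1orf54 took rank 5 and SNCG rank 7 among all genes by size of the difference, the comparison by which they were chosen. The genes around them, named after their values were seen, were GDF15, a secreted stress factor, at 2.72, IFITM1 and IFITM2, interferon-induced membrane proteins, at 2.34 and 2.24, CDKN1A, the p21 cell cycle inhibitor, at 1.86, DDIT4, an inhibitor of mTOR signalling, at 1.63 and the aldolase gene ALDOC at 1.52. The median difference of all genes was -0.26, so both genes lay against the overall direction. When the linear values of every cell were brought to an equal total (the equal-total scale), so that the spike-in scaling dropped out, the differences were 2.28 and 2.06, where 3.28% of genes were up. In linear means the level was 2.84 times that of the control for C1orf54 and 2.34 times for SNCG. Of 53 cells, 47 lay above the control median for C1orf54 and 42 for SNCG.

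The Pac48h cells came from index blocks 2 and 4. C1orf54 had a mean E-value of 4.25 in the 22 cells of block 2 and 4.25 in the 31 cells of block 4. SNCG had 5.64 ± 2.78 in block 2 and 6.75 ± 2.32 in block 4, which is a difference from the control of 0.94 in block 2 alone and 2.05 in block 4, the block of the control cells. The part of the block in this difference was not tested.

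In Pac16h C1orf54 was 0.47 and SNCG 0.55 above the control, and neither passed the limit, which 0.0932% of genes did. Their ranks were 21 and 11 of 9655, and the median gene was 0.41 lower than in the control. On the equal-total scale the differences were 1.02 for C1orf54 and 1.22 for SNCG and both passed the limit, as did 1.4% of genes. For SNCG the ratio of linear means was 0.940, so that its mean amount was no higher than in the control and the sign of the difference depends on how cells are averaged. Between Pac16h and Pac48h C1orf54 was 1.36 and SNCG 1.04 higher, a comparison that does not use the control cells and in which 7.89% of genes were up. With equal totals these values were 1.26 and 0.83, and 6.18% of genes were up. For SNCG this difference was 0.39 with the cells of block 2 alone.

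In Cele2h C1orf54 was 1.80 above the control (rank 6) and SNCG 0.83 (rank 36), and both passed the limit with 1.12% of all genes. On the equal-total scale they were 2.18 and 1.24, where 3.31% of genes were up. In cele16h C1orf54 was 0.90 above the control (rank 19) and passed it with 0.383% of genes. SNCG was 0.16 above the control and did not pass it, at rank 315. The median gene was 0.48 lower at this time, and on the equal-total scale C1orf54 was 1.94 and SNCG 1.39 above the control, where 7.37% of genes were up. The linear mean of SNCG in cele16h was 0.718 times that of the control, against 1.42 times for C1orf54.

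In PacCele16h C1orf54 was 3.19 above the control, rank 1 of 9655 genes, and SNCG was 2.02 above it, rank 23. In this comparison 30.4% of genes were up and the median gene was 0.33 higher. The linear mean of C1orf54 was 838 against 100 in the control, a ratio of 8.34, and that of SNCG was 2647 against 681, a ratio of 3.89. Of the 59 cells, 56 lay above the control median for C1orf54 and 48 for SNCG. The equal-total scale gave 2.44 and 1.37, at ranks 1 and 20, and 5.96% of genes were up. The cells of index blocks 1 and 3 had means of 5.65 and 5.53 for C1orf54 and of 7.14 and 6.16 for SNCG. The 5 treatments share the control cells, so their differences from it are not independent of each other.

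**Figure D2:**
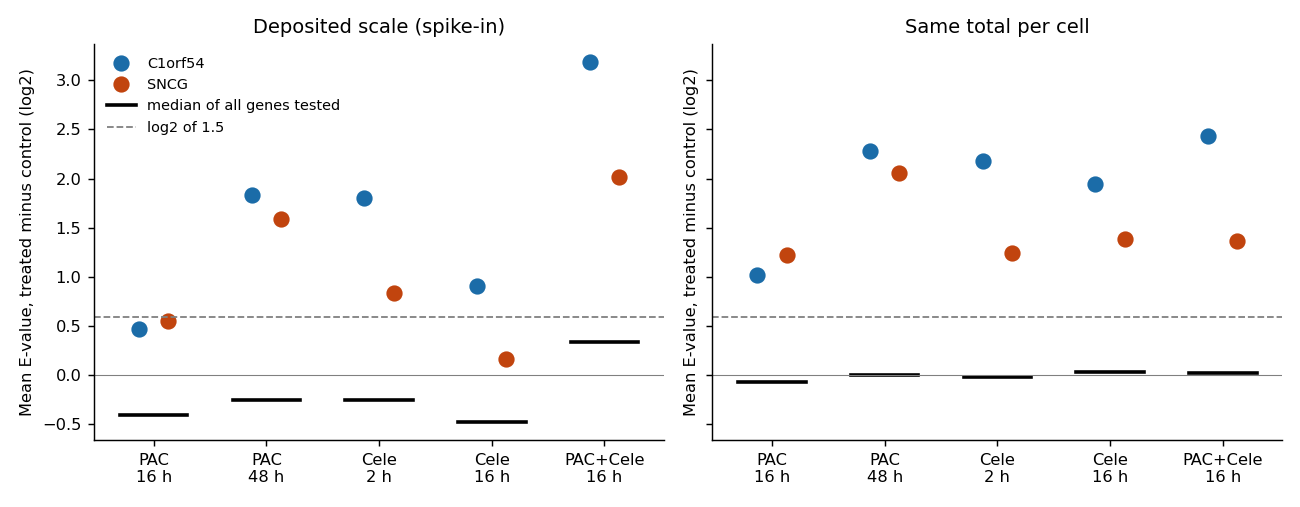
Mean E-value in each treatment minus the mean in the control (log2 scale, vertical axis) for C1orf54 and SNCG, on the deposited spike-in scale (left) and on the equal-total scale (right). Black bars are the median of the 9655 genes tested and the dashed line is log2 of 1.5; both genes lie above the median gene in every treatment on both scales, with C1orf54 at 3.19 and SNCG at 2.02 for both drugs on the left.

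Adding celecoxib to paclitaxel for 16 h gave a higher mean for both genes than paclitaxel alone, by 2.71 for C1orf54 and 1.47 for SNCG, but 62.5% of all genes were up in this comparison. C1orf54 took rank 15 and SNCG rank 1707. With equal totals C1orf54 was 1.41 higher, at rank 24, and SNCG 0.14, under the limit, where 9.57% of genes were up. Against celecoxib alone for 16 h the differences were 2.29 and 1.86, where 66% of genes were up, and 0.49 and -0.02 on the equal-total scale, where 5.03% were up. SNCG in PacCele16h was thus past the limit against either drug for 16 h on the spike-in scale and against neither on the equal-total scale, whereas C1orf54 was past it against paclitaxel alone on both.

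A higher mean can come from more cells in which a gene is detected or from more RNA in those cells. C1orf54 was detected in 32 of 46 control cells (69.6%, exact Clopper-Pearson 95% interval 54.2 to 82.3%) and in 51 of 53 cells in Pac48h (96.2%, 87.0 to 99.5%). It was detected in 73.2% of cells (59.7 to 84.2%) in Pac16h, 88.9% (78.4 to 95.4%) and 88.5% (77.8 to 95.3%) in Cele2h and cele16h, and 94.9% (85.9 to 98.9%) in PacCele16h. These intervals cover counting error within a condition only. Those of Pac16h, Cele2h and cele16h overlap that of the control. Among the cells in which C1orf54 was detected, the mean E-value was 3.47 ± 1.23 in the control and 3.94 ± 1.05 in Pac16h. It was 4.41 in Pac48h, 4.74 ± 1.14 in Cele2h, 3.74 ± 1.14 in cele16h and 5.90 ± 1.43 in PacCele16h. Both quantities were thus higher than in the control, within these overlaps.

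SNCG was detected in 39 of 46 control cells (84.8%, 71.1 to 93.7%) and in 48 of 53 cells in Pac48h (90.6%, 79.3 to 96.9%). The share was 92.9% (82.7 to 98.0%) in Pac16h, 84.1% (72.7 to 92.1%) and 96.7% (88.7 to 99.6%) in Cele2h and cele16h, and 86.4% (75.0 to 94.0%) in PacCele16h. All intervals overlap that of the control. The mean E-value of the detected cells was 5.55 ± 1.72 in the control, 5.66 ± 1.45 in Pac16h, 6.95 ± 1.60 in Pac48h, 6.58 ± 1.40 in Cele2h, 5.03 ± 1.53 in cele16h and 7.78 ± 1.38 in PacCele16h. It was thus above the control in all treatments except cele16h, where the overall mean was higher with a larger share of detected cells and a lower level in them. The number of genes detected per cell was not higher than in the control in any treatment by its median. Within conditions, Pearson's r of C1orf54 with this number lay between -0.005 in PacCele16h and 0.35 in Pac48h. The part of overall detection in the share of C1orf54 was not tested.

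**Figure D3:**
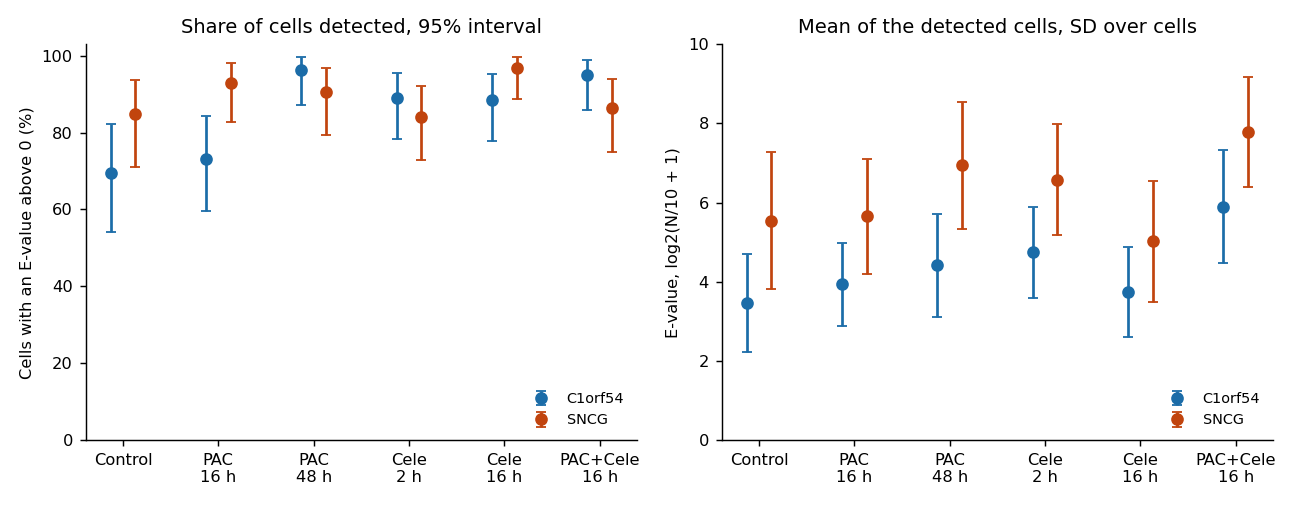
Left, percent of cells with an E-value above 0 for C1orf54 and SNCG in the 6 conditions, with exact 95% Clopper-Pearson intervals. Right, mean E-value (log2 scale) of the cells in which the gene was detected, with bars for the SD over these cells; C1orf54 lies at 69.6% of control cells and 96.2% of cells in Pac48h, and SNCG at 84.8 and 90.6%.

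The authors assigned each cell to a state with a random forest of its expression, and the state row of the table was used to split the paclitaxel cells. The states were made from the expression of these same cells, so differences between them are a description. In Pac48h 28 cells were control-like and 25 suppressed. SNCG ranged from 5.76 to 8.92 with a median of 7.73 in the control-like cells, and from 0 to 8.00 with a median of 6.55 in the suppressed cells. All 5 cells without SNCG were suppressed, and no control-like cell was below 5.76, although 7 of 45 control-like cells of the untreated group were at 0.

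The mean of SNCG in Pac48h was 7.67 ± 0.76 in the control-like and 4.75 ± 2.97 in the suppressed cells, a difference of 2.92 that took rank 3 of 9655 genes, where 34.5% of genes were up. On the equal-total scale it was 2.28, at rank 4, and 8.79% of genes were up. Against the untreated cells the mean of SNCG was 2.96 higher in the control-like cells and 0.05 higher in the suppressed cells, which became 3.13 and 0.85 on the equal-total scale. By medians the suppressed cells lay above the untreated cells, at 6.55 against 5.28. The suppressed cells were widely spread, with 5 of 25 at 0, against 7 of 46 untreated cells. Within index block 2 the means were 7.26 in 9 control-like and 4.52 in 13 suppressed cells, and within block 4 they were 7.86 in 19 and 5.00 in 12 cells. The split by state was thus seen in each block. Suppressed cells also had fewer genes detected, with a median of 5871 against 6572 in control-like cells.

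C1orf54 differed less between these states. Its mean in Pac48h was 4.50 ± 1.45 in control-like and 3.96 ± 1.60 in suppressed cells, a difference of 0.54, which was -0.13 on the equal-total scale. It was detected in 27 of 28 control-like and 24 of 25 suppressed cells, and its mean was 2.09 and 1.55 above that of the untreated cells. In Pac16h the control-like cells were 0.28 higher than the suppressed cells for C1orf54 and 0.62 for SNCG, where 35.5% of genes were up, and -0.27 and -0.13 on the equal-total scale, where 10.3% were up. The difference of SNCG between states was therefore large in Pac48h and not in Pac16h, and the change between the times was not tested.

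**Figure D4:**
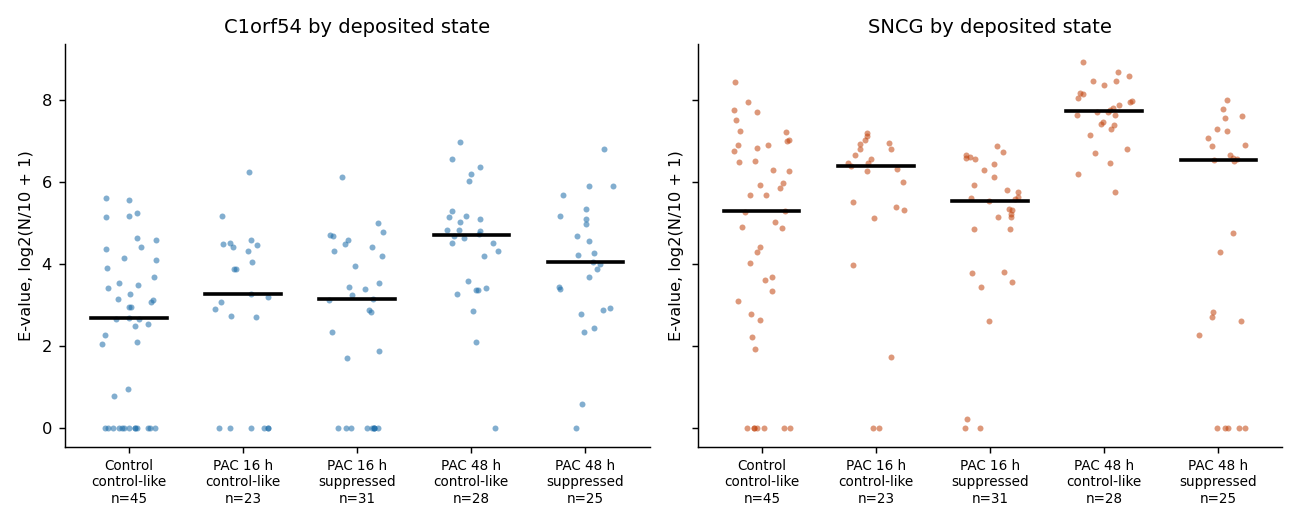
E-value (log2 scale) of C1orf54 (left) and SNCG (right) in control-like cells of the untreated group and in control-like and suppressed cells of Pac16h and Pac48h, by the state the authors deposited. Points are cells and bars medians; at 48 h the 28 control-like cells lie between 5.76 and 8.92 for SNCG while 5 of 25 suppressed cells lie at 0.

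The genes were compared within cells. Both were detected in 28 of 46 control cells, 46 of 53 cells in Pac48h and 49 of 59 cells in PacCele16h, where the product of the separate shares gives 27.1, 46.2 and 48.4 cells. Pearson's r between their E-values was 0.14 in the control, 0.18 and 0.35 in Pac16h and Pac48h, 0.23 and -0.02 in Cele2h and cele16h and 0.17 in PacCele16h, and Spearman's rho lay between -0.06 and 0.40. Over all 338 cells, after the mean of each condition was taken from the E-values, r was 0.18. The cells of a condition are not independent samples, and a weak correlation of this size between sparse values is not a finding. Within conditions, r with the transcript total of the cell lay between -0.03 and 0.27 for C1orf54 and between -0.04 and 0.55 for SNCG, with the highest value for SNCG in Pac48h.

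The genes whose differences from the control were closest to those of C1orf54, by Euclidean distance over the 5 treatments, were IFITM1 (0.68), PCK2 (0.90), IFITM2 (0.95), BEX2 (1.08) and ASNS (1.29). PCK2 is the mitochondrial phosphoenolpyruvate carboxykinase, ASNS makes asparagine, and BEX2 is a small X-linked protein first described in brain. C1orf54 shared with IFITM1 a difference of 1.84 against 2.34 in Pac48h and of 3.19 against 3.09 in PacCele16h, and with PCK2 a difference of 1.80 against 2.10 in Cele2h. ASNS differed from C1orf54 in Pac16h, with -0.31 against 0.47, but on the equal-total scale both were above the control, at 0.22 and 1.02. Of the 4 of these genes with a RefSeq window, 0 held TGATGCAA, ASNS held TGATGNAA in 1 of 2 windows and IFITM1 held the interferon-stimulated letters.

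For SNCG the closest genes were ALDOC (0.44), PLA2G16 (0.62), TRAPPC6A (0.66), MORN4 (0.76) and RTN2 (0.81). ALDOC is an aldolase known from brain, PLA2G16 a phospholipase of fat tissue, TRAPPC6A a subunit of a vesicle tethering complex and RTN2 a reticulon of the endoplasmic reticulum. ALDOC differed from the control by 0.83 and 1.52 in Pac16h and Pac48h and by 1.87 in PacCele16h, where SNCG had 0.55, 1.59 and 2.02. The control level of ALDOC was only 0.06, against 4.70 for SNCG. MORN4 also lies on chromosome 10, at chr10:97614553-97633500, and the others lie on other chromosomes. Such likeness rests on 5 differences that share the control cells.

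Across the 338 cells, after the mean of each condition was taken away, the genes that varied most closely with SNCG were NTS, the precursor of the peptide neurotensin (r = 0.72), the calcium-binding protein S100A4 (0.63), CDC42EP5, an effector of CDC42 (0.58), ID3, an inhibitor of helix-loop-helix factors (0.55), and the kinase MAP2K6 (0.55). They were 0.71, 0.59, 0.54, 0.53 and 0.57 on the equal-total scale. The 95th percentile of r over the 9654 other genes was 0.24, and 12 genes exceeded 0.5. NTS and SNCG had r of 0.58 in the control, 0.54 and 0.82 in Pac16h and Pac48h, 0.81 and 0.59 in Cele2h and cele16h and 0.80 in PacCele16h, and Spearman's rho between 0.35 and 0.69. The points of a condition are cells of the same sample and share its depth.

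The cells without SNCG were also those in which NTS was most often low. In Cele2h NTS was also at 0 in 8 of the 10 cells without SNCG and in 5 of the 8 in PacCele16h. In Pac48h NTS was at 0 in 0 of 5 such cells but mostly low, with E-values of 0.1, 0.325, 1.298, 2.095 and 6.53. Among cells with SNCG detected, NTS was above 5 in 42 of 48 cells in Pac48h, 47 of 53 in Cele2h and 49 of 51 in PacCele16h. Cells without SNCG were present in the control as well, where 2 of 7 had NTS above 5, against 35 of 39 with SNCG detected. The mean of NTS itself differed from the control by only 0.26 in Pac48h. Cells without SNCG had a median of 5821 genes detected in Pac48h, against 6389 in the other cells, and 6642 against 6618 in the control.

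**Figure D5:**
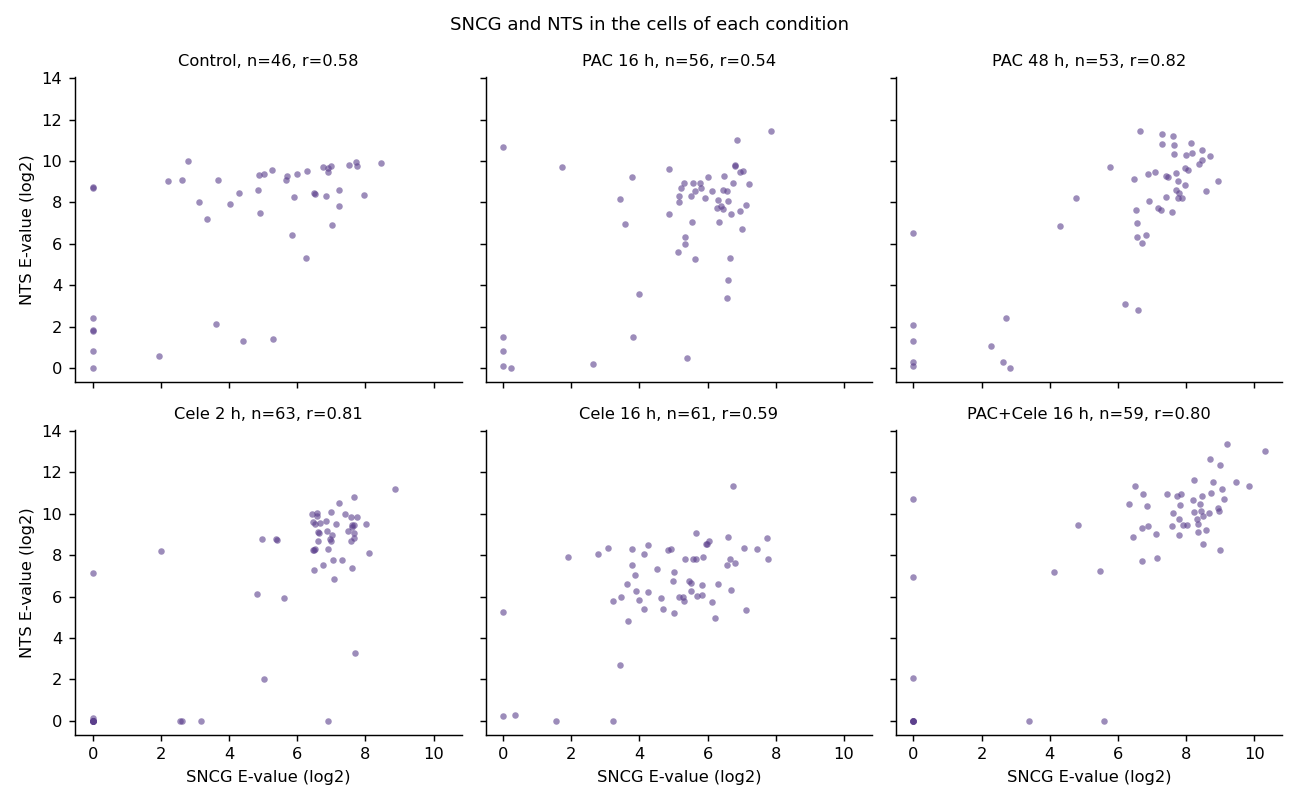
E-values (log2 scale) of SNCG (horizontal) and NTS (vertical) in the cells of each condition, 1 point per cell. Cells in which SNCG was detected mostly lie above an E-value of 5 for NTS, in 35 of 39 control cells and 49 of 51 cells in PacCele16h, with Pearson's r from 0.54 in Pac16h to 0.82 in Pac48h.

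For C1orf54 the closest genes within conditions were IFITM2 (r = 0.37), MLLT11 (0.37), NBDY (0.35), S100A13 (0.33) and BEX3 (0.33), and 0 of 9654 genes exceeded 0.5. IFITM2 was also among the closest by condition. MLLT11 and S100A13 lie on chromosome 1 like C1orf54, at chr1:151060397-151069544 and chr1:153618787-153631360. MLLT11 differed from the control by -1.38 in Pac48h, unlike C1orf54. Its r with C1orf54 was lowest in that condition, at 0.15, and highest in PacCele16h, at 0.52. These coefficients are weak and are given as a description.

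The listed neighbours in the genome were counted in Pac48h, where 0.922% of all genes were up and 26.6% down past the limit, so counts of 0 up in small groups are no result about them. Of 9 listed genes that start within 250 kb of C1orf54, 0 were up and 3 down past the limit, with a median difference of -0.47. APH1A, which overlaps C1orf54, was -0.24 from the control, and CA14, a membrane carbonic anhydrase, was the highest at 0.24. In PacCele16h 2 of these 9 were up, where 30.4% of all genes were. They were CA14 at 1.07 and VPS45, a vesicle fusion protein, at 0.60, against 3.19 for C1orf54. Of 4 listed genes within 250 kb of SNCG, 0 were up and 1, FAM35A (SHLD2), was down at -0.73. In PacCele16h 2 of these 4 were up, BMPR1A at 0.67 and GLUD1 at 0.68, against 2.02 for SNCG. MMRN2, which contains SNCG, was 0.19 above the control from a level of 0.10, in Pac48h.

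Of 7 spindle checkpoint genes, 0 were up and 5 down in Pac48h, with a median of -1.53. BUB1B, the reported partner of gamma-synuclein, was at -1.53 and CDC20, an activator of the anaphase-promoting complex, at -2.64. MAD1L1 at 0.06 and TTK at -0.41 were not past the limit. BUB1B was at -1.11 and 4 of 7 were down on the equal-total scale, as were 5.78% of all genes. Of 13 listed tubulins and microtubule-associated proteins, 1 was up and 8 were down, and 2 were down on the equal-total scale. The alpha-tubulin gene TUBA1A was the gene up, at 0.60, and the beta-tubulin gene TUBB2A was lowest at -1.43. Of 4 listed neuronal proteins, 0 were up and 2 down, where 0.922% and 26.6% of all genes were, with UCHL1, a deubiquitinating enzyme, at -0.69 and the neurofilament NEFH at -1.13. SYP at -0.06 and TUBB3 at -0.29 were not past the limit. With equal totals NEFH alone was down, and UCHL1 was at -0.13.

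Of 21 listed p53 targets, 2 were up and 0 down in Pac48h, where 0.922% of all genes were up and 26.6% down, with a median of 0.25 against -0.26 for all genes. GDF15 was 2.72 and CDKN1A 1.86 above the control, followed by the DNA repair gene DDB2 at 0.58 and PHLDA3 at 0.53, both under the limit. Of the 21, 7 were up on the equal-total scale, against 3.28% of all genes. In PacCele16h 4 of the 21 were up and 0 down, against 30.4% of all genes up, with GDF15 at 1.60 and CDKN1A at 0.13, where C1orf54 was at 3.19 and SNCG at 2.02.

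The 73 genes that the study set out as a response module include neither C1orf54 nor SNCG. The study drew them from genes picked in these cells and then narrowed them by coexpression in other cell lines, so the list is not independent evidence of its direction here. In Pac48h 21 of them were up and 0 down, with a median of 0.43, where 0.922% of all genes were up. With equal totals 53 were up, against 3.28% of all genes. On the deposited scale in Pac48h, the comparison by which they were chosen, C1orf54 and SNCG exceeded all but the largest, IFITM1 and IFITM2. These were followed by the galectin LGALS1 at 1.09 and FBXO2 at 1.03. Of the 192 listed genes with a symbol of the C-number-orf kind, 1, C1orf54 itself, was up in Pac48h and 58 were down, shares near those of all genes (0.922% up and 26.6% down). On the equal-total scale 3 were up and 10 down, against 3.28% and 5.78% of all genes. The next after C1orf54 was C6orf1 at 0.45, against 1.84. C1orf54 was first of these 192 genes in every treatment except Pac16h, where it was second. It was chosen on its values in Pac48h and PacCele16h, so its places there only describe that choice.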

How the data were processed

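Single A2780 cells were captured on the Fluidigm C1 and sequenced after Smart-seq2. Per the submitters' processing notes and the study's methods, Trim Galore removed adapters, and the authors aligned reads by Bowtie2 to GENCODE version 28 transcripts (hg38) joined by 3 spike-in sequences and took TPM from RSEM 1.3.0 at default settings. They divided the TPM by the signal of the highest spike-in and deposited log2 values, the E-values log2(N/10 + 1), after removing cells with poorly detected housekeeping genes. The spike-in division carries its own error into every gene of a cell, so a rescaling without it was set beside the main differences of C1orf54 and SNCG. Differences of neighbouring genes and, for the most part, of genes named by likeness are on the spike-in scale alone. States are the authors' own calls.

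Cells were mapped to conditions by their labels, 338 columns by title. Mean E-values over cells were compared with a limit of log2 of 1.5, among 9655 genes detected in over 30% of cells of at least 1 condition. With 1 sample per condition there is no test, and a cell-to-cell SD is not the error of a condition. Depth per cell is unknown, and the genes detected per cell stand in for it. Linear values were also brought to an equal total in every cell (equal-total scale), and pseudocounts of 10 and 1, linear means, single index blocks, wells without a note of 0 cells, and cells of middling gene number were tried. Shares have exact Clopper-Pearson 95% intervals. Correlations are descriptions over cells.

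Besides C1orf54 and SNCG, genes were named by rule: the 5 closest by Euclidean distance over the differences from control, the 5 with the highest r within conditions, listed genes starting within 250 kb, and the 4 highest and 2 lowest in Pac48h in each list. Other genes ranking beside them at 48 h were named after their values were seen. Genes and lists were chosen with earlier results of these data known. Coordinates come from GENCODE version 44, which held 9643 of the 9664 genes by identifier, and sequences from RefSeq promoters, which held both genes. Calculations ran in Python 3.11.15 with pandas 2.3.3 and scipy 1.17.1 (numpy 2.4.6), plots in matplotlib 3.10.9, and the code was tested on simulated data.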

Additional observations from a re-analysis of the deposited data

Results flagged for a closer look

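The means of 3 genes named beside C1orf54 and SNCG moved in opposite directions at different times of the same drug, past the limit on both sides. These differences between times were not tested, because each condition is 1 sample. LGALS1 differed from the control by 0.85 in Cele2h and -0.98 in cele16h, and by 1.33 and 0.21 on the equal-total scale. S100A4, among the genes closest to SNCG between cells, differed by 0.64 and -1.24 at these times, and by 1.20 and 0.12 on the equal-total scale. TUBA1A differed by -0.70 in Pac16h and 0.60 in Pac48h, and by -0.06 and 1.08 on the equal-total scale. On the deposited scale the opposite signs were present, and on the equal-total scale LGALS1 and S100A4 had the same sign at both times. The mean E-values of C1orf54 and SNCG were above the control at both times of each drug on both scales.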

How the results depend on the processing

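C1orf54 in Pac48h (1.42 to 2.75), in Cele2h (1.46 to 2.51) and in PacCele16h (2.44 to 4.13) stayed past the limit in all alternatives run, as did SNCG in Pac48h (0.94 to 2.46), in Cele2h (0.65 to 1.24) and in PacCele16h (1.37 to 2.43), and its difference between states at 48 h (1.45 to 3.62). On the equal-total scale C1orf54 was 1.02 and SNCG 1.22 above the control in Pac16h and SNCG 1.39 in cele16h, all now past the limit. On that scale C1orf54 in PacCele16h against celecoxib was 0.49, and SNCG was 0.14 against paclitaxel and -0.020 against celecoxib, no longer past it. The differences between states there were -0.27 and -0.13 for C1orf54 in Pac16h and Pac48h and -0.13 for SNCG at 16 h. With a pseudocount of 1, C1orf54 and SNCG were 0.64 and 0.80 above the control in Pac16h, and C1orf54 differed by 0.62 between states at 48 h. From linear means SNCG was at -0.088 in Pac16h and -0.47 in cele16h, and C1orf54 at 0.47 in cele16h. In cells with 5833 to 6735 genes detected (26 to 33 per condition) SNCG was at 0.68 and 0.78 in Pac16h and cele16h, and C1orf54 was detected in 96.4% of cells in cele16h and 100% in PacCele16h. With index block 2 alone SNCG was 0.39 higher in Pac48h than in Pac16h. For these changes the cause was not tested.

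Counts of genes up moved most. On the equal-total scale they were 135 and 317 in Pac16h and Pac48h (9 and 89 as reported), 320 and 712 in Cele2h and cele16h (108 and 37), 575 in PacCele16h (2936), and 924 and 486 for both drugs against paclitaxel and celecoxib (6035 and 6374). With a pseudocount of 1 they were 134 and 462 for paclitaxel, 378 and 230 for celecoxib, and 2319 for Pac48h against Pac16h (762). From linear means they were 36 and 143 for paclitaxel, 169 in Cele2h and 5483 in PacCele16h, and at a detection limit of 50% they were 5 in Pac16h. Genes down in Pac48h were 558 on the equal-total scale and 4239 with a pseudocount of 1 (2571). The other 132 values kept their direction and side of the limit, moved by less than the spread, or, for counts of genes, stayed within 1.5 times the reported count. No paired analysis was possible because each condition is 1 sample. Depth per cell is unknown, and low levels near detection are least certain.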
